A study of Jaculus jaculus with 29 samples.

Results

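The 7 genes described here are the Fos genes (Fos, Fosb, Fosl1 and Fosl2) and the Jun genes (Jun, Junb and Jund) of the jerboa, Jaculus jaculus, a desert rodent. They were taken by symbol from 29170 counted genes. The authors' deposited table names 4 of them (Fos, Fosb, Fosl1 and Jund). Fosl2, Jun and Junb carry no symbol there and were named by their position in RefSeq's annotation of the same assembly, mJacJac1, where the smaller share of overlap between the 2 gene spans was 0.804 for Fosl2, 0.984 for Jun and 0.762 for Junb.

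RNA with poly(A) tails was sequenced from punches of the supraoptic nucleus, the hypothalamic nucleus whose large neurons release vasopressin and oxytocin. Dehydrated animals (10 libraries) were under water restriction for 11 days. Rehydrated animals (9 libraries) were restricted for 7 days and given water for the next 3 days, and Control animals (10 libraries) could drink throughout. Assignment was random, and all were housed singly at 25 °C under a 12 h light cycle with dry pellets. The tissue came from 12 bilateral punches of 1 mm, cut from frozen sections of 100 µm, so each library holds a nucleus with its surroundings. The ages of the animals are not given in the sources used here.

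Each library name carries the letter M or F, and the comparisons below were made over all libraries and within each letter. M-named libraries numbered 5 in Dehydrated, 5 in Rehydrated and 5 in Control. F-named libraries numbered 5 in Dehydrated, 4 in Rehydrated and 5 in Control. The letter differed from the labelled sex in 3 libraries: Dehydrated M02 and Control M05 are labelled female, and Control F03 is labelled male. For these 3 the submitters' notes give the labelled sex as that of the animal and set the library name aside, so the letter here names a set of libraries and not a sex. A number in the column headers ran from 1 to 14 in M-named libraries, apart from Rehydrated M04 at 49, and from 15 to 28 in F-named libraries, and within a letter each treatment held a block of these numbers. The letter and that number cannot be told apart, and neither can the treatment and the number within a letter.

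Total counts ran from 10797577 to 18856620 per library, and 17558 genes, all 7 AP-1 genes among them, had enough counts to be tested. Control M01 had the lowest total and stood apart, at 136.9 on a first principal component that held 21.65% of the variance, while the other libraries lay between -13.74 and 7.76. None of 8 listed markers of magnocellular neurons was listed at 0, and their summed levels per library were 2251 to 7024 CPM in Dehydrated, 519 to 5334 CPM in Rehydrated and 780 to 3709 CPM in Control. CPM are counts scaled to a common library size with edgeR's TMM factors. In punched tissue, fewer cells of a type and less RNA per cell cannot be told apart.

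AP-1 is a dimer of basic leucine zipper proteins, in which a Fos protein pairs with a Jun protein, or Jun proteins pair with each other, to bind DNA and set the transcription of target genes. Fos, Fosb and Junb are immediate-early genes, which in rodent neurons are switched on within minutes of stimulation and whose transcripts are short-lived. Fos is widely used in rats and mice to mark supraoptic neurons activated by osmotic stimuli, while Jund is more steadily present.

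In M-named libraries Fos, Fosb and Junb were lower in Dehydrated than in Control, and Fos was lower by 2.08 on the log2 scale. In F-named libraries none of the 7 genes differed between Dehydrated and Control past the threshold. In Control, the same 3 genes stood higher in M-named libraries. Over all libraries no AP-1 gene passed the threshold between treatments.

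Fos (ENSJJAG00000007870) lies in mJacJac1 on chromosome 7 at 142628026 to 142631738, on the minus strand, and its annotated exons span 2029 bases. Its protein is the main activating partner of Jun proteins. In M-named Dehydrated libraries Fos stood at 18.4 (M02), 13.6 (M05), 15.3 (M06), 8.19 (M08) and 14.7 CPM (M09). In M-named Control libraries Fos stood at 59.7 (M01), 66.8 (M03), 60.4 (M04), 49.04 (M05) and 61.0 CPM (M06). The 2 groups did not overlap: even the lowest M-named Control library, M05, was far above the highest Dehydrated one, M02, and both are libraries labelled female. Fos had means of 14.03 ± 3.71 CPM in M-named Dehydrated and 59.4 ± 6.42 CPM in M-named Control (SD, n = 5 each). Fos fell by 2.08 on the log2 scale (SE 0.25), with an adjusted p of 4.69e-05 by the quasi-likelihood test of edgeR, Benjamini-Hochberg adjusted over all tested genes.

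In F-named libraries Fos did not show this difference, and 11 of all tested genes passed there (0.0626%), none of the 7. The 5 F-named Dehydrated libraries held 15.2 (F03), 19.5 (F04), 20.3 (F05), 16.9 (F06) and 16.8 CPM (F07). The 5 F-named Control libraries held 22.9 (F01), 13.9 (F02), 17.1 (F03), 13.8 (F05) and 15.99 CPM (F06). The groups overlapped, and the F-named Control library labelled male, F03, lay among the other F-named ones. None of the 7 genes separated the F-named groups, as 0.917% of all genes did. The log2 difference of Fos was 0.09, with a 95% interval of -0.40 to 0.57 and an adjusted p of 1.00 by edgeR's quasi-likelihood test. The difference between the letters, M-named minus F-named, was itself tested for Fos and was -2.17 (SE 0.35), with an adjusted p of 0.00410 by the same test. In that test 9 of 17558 genes passed (0.0513%), and Fos was the 1 AP-1 gene among them.

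**Figure D1:**
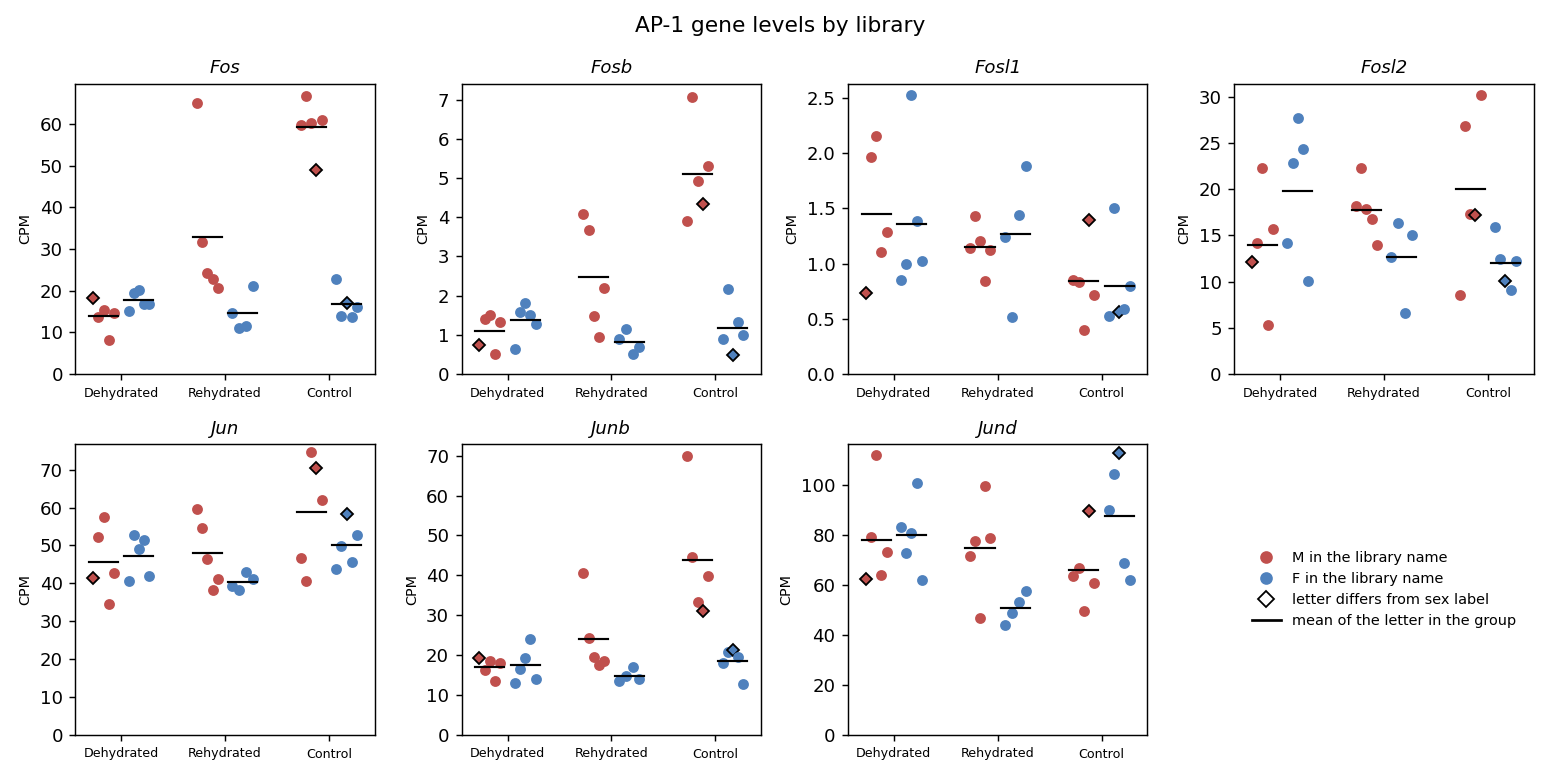
CPM (linear axes from 0) of the 7 AP-1 genes in each of the 29 libraries by treatment, with M-named libraries in red, F-named libraries in blue, diamonds for the 3 libraries whose letter differs from the sex label, and a bar at the mean of each letter in a group. For Fos, the 5 M-named Control libraries sit between 49.04 and 66.8 CPM, above all Dehydrated libraries, and Rehydrated M01 lies at 65.1 CPM.

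Fosb (ENSJJAG00000013651) lies on chromosome 14 at 4276478 to 4281810, on the minus strand. It encodes FosB and, by splicing, a truncated form known to build up in rodent neurons under repeated stimulation, and counts per gene do not separate the forms. Its M-named Dehydrated libraries held 0.7301 (M02), 1.41 (M05), 1.503 (M06), 0.523 (M08) and 1.34 CPM (M09). Its M-named Control libraries held 3.90 (M01), 7.08 (M03), 4.93 (M04), 4.35 (M05) and 5.30 CPM (M06). Again the groups did not overlap. Over all 29 libraries Fosb had between 6 and 127 counts, so its single values carry more counting error than those of Fos. Fosb fell by 2.21 on the log2 scale (SE 0.39, adjusted p 0.00664, edgeR's quasi-likelihood test). In F-named libraries Fosb averaged 1.37 ± 0.449 CPM in Dehydrated and 1.17 ± 0.629 CPM in Control (SD, n = 5 each), and the log2 difference was 0.22, with a 95% interval of -0.56 to 1.00. The difference of Fosb between the letters was -2.43 (SE 0.55), with an adjusted p of 0.114 by edgeR's quasi-likelihood test, and missed the threshold.

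Junb (ENSJJAG00000034050) lies on chromosome 21 at 13538973 to 13541018, on the minus strand, in 1 annotated exon. Its protein is a Jun partner with a weaker activating effect than Jun. The M-named Dehydrated libraries held 19.3 (M02), 16.2 (M05), 18.6 (M06), 13.4 (M08) and 17.9 CPM of Junb (M09). The M-named Control libraries held 70.0 (M01), 44.5 (M03), 33.2 (M04), 30.95 (M05) and 39.9 CPM of Junb (M06). No Dehydrated library reached the lowest Control one, and Control M01 stood highest. Junb fell by 1.35 on the log2 scale (SE 0.22, adjusted p 0.00345, edgeR's quasi-likelihood test). In F-named libraries Junb averaged 17.4 ± 4.48 CPM in Dehydrated and 18.5 ± 3.39 CPM in Control (SD, n = 5 each). The log2 difference was -0.08, with a 95% interval of -0.52 to 0.35. The difference of Junb between the letters was -1.27 (SE 0.31, adjusted p 0.159, edgeR's quasi-likelihood test) and missed the threshold.

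These 3 of 7 AP-1 genes that fell in M-named libraries stand against 37 of 17558 genes that fell there (0.211%), or 46 genes called in either direction (0.262%). Groups that did not overlap, with Dehydrated lower, were seen in the same 3 AP-1 genes and in 1.54% of all tested genes. With each of the 29 libraries left out in turn, Control M01 and the 3 libraries of differing letter and label among them, all 3 calls held, with log2 differences of -2.20 to -1.94 for Fos, -2.35 to -2.03 for Fosb and -1.45 to -1.12 for Junb. In a two-sided exact permutation test on log2 CPM within the letter, the p of Fos, Fosb and Junb was 0.00794 each, the smallest that 5 libraries against 5 allow. Adjusted over the family of 28 such tests it was 0.0741, so no AP-1 gene passed there. With 3 genes alone at that smallest p, none could pass over 28 tests.

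The other 4 members did not pass in either letter. Jun, the founding member and the substrate of the JNK kinases (ENSJJAG00000033037), lies on chromosome 5 at 92256271 to 92258545. Jun averaged 45.6 ± 9.12 CPM in M-named Dehydrated and 58.9 ± 14.8 CPM in M-named Control (SD, n = 5 each). The groups overlapped, and the log2 difference was -0.37 (SE 0.15, adjusted p 0.276, edgeR's quasi-likelihood test). In F-named libraries the log2 difference of Jun was -0.09, with a 95% interval of -0.38 to 0.21.

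Fosl2 (ENSJJAG00000025538) encodes Fra-2, a relative of Fra-1, and lies on chromosome 5 at 173761876 to 173778819. Its 5 M-named Dehydrated libraries held 5.29 to 22.4 CPM, and the 5 M-named Control libraries 8.55 to 30.2 CPM. Its F-named Dehydrated libraries held 10.1 to 27.7 CPM, and the F-named Control libraries 9.12 to 15.96 CPM. The estimates had opposite signs in the letters, with log2 differences of -0.53 (SE 0.32) in M-named and 0.73 (SE 0.32) in F-named libraries. Their difference, -1.26 (SE 0.45), had an adjusted p of 0.412 by edgeR's quasi-likelihood test.

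Fosl1 (ENSJJAG00000017498) encodes Fra-1, a Fos protein that lacks the strong activating domain of Fos, and lies on chromosome 1 at 162126376 to 162137115. It had the fewest counts of the 7 members over all 29 libraries, with 7 to 43 per library. In Dehydrated, Fosb had a lower mean, at 1.23 CPM, than Fosl1 at 1.40 CPM. Its log2 difference between Dehydrated and Control was positive in M-named libraries (0.80, SE 0.40) and in F-named ones (0.76, SE 0.40), and over all libraries it was 0.78 (SE 0.27, adjusted p 0.587, edgeR's quasi-likelihood test). Over all libraries Fosl1 lay at 0.730 to 2.52 CPM in Dehydrated (median 1.19), at 0.515 to 1.89 CPM in Rehydrated (median 1.21) and at 0.401 to 1.505 CPM in Control (median 0.754). In 9 of 10 Dehydrated libraries it was above the Control median, yet the groups overlapped.

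Jund, the Jun gene that is known to be the least inducible (ENSJJAG00000004780), lies on chromosome 1 at 223888635 to 223889669. It averaged 78.1 ± 20.1 CPM in M-named Dehydrated and 66.0 ± 14.6 CPM in M-named Control (SD, n = 5 each), with a log2 difference of 0.25 (SE 0.19). In F-named libraries Jund averaged 79.8 ± 14.3 CPM in Dehydrated and 87.5 ± 21.9 CPM in Control (SD, n = 5 each), with a log2 difference of -0.13 (SE 0.19). The adjusted p of Jund was 0.557 and 1.00 in the 2 letters by edgeR's quasi-likelihood test.

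**Figure D2:**
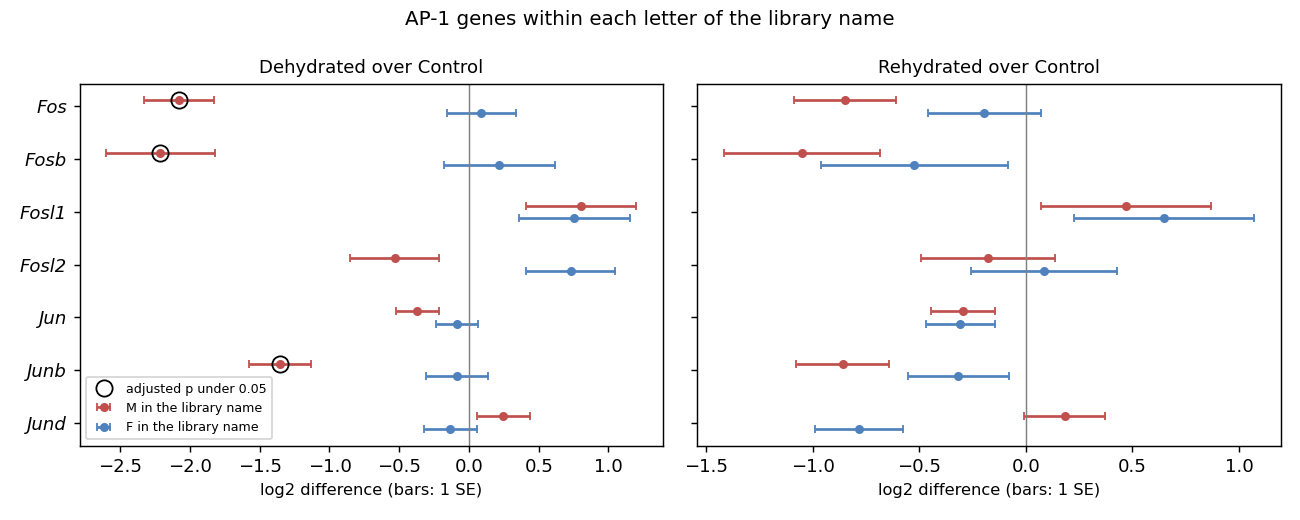
Log2 differences of the 7 AP-1 genes with bars of 1 SE from edgeR's fit, for Dehydrated over Control on the left and Rehydrated over Control on the right, with M-named libraries in red and F-named libraries in blue. Black rings mark adjusted p under 0.05, which only Fos (-2.08), Fosb (-2.21) and Junb (-1.35) reached, in M-named Dehydrated over Control.

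Over all libraries, Fos lay at 8.19 to 20.3 CPM in Dehydrated (median 16.03), at 11.1 to 65.1 CPM in Rehydrated (median 21.1) and at 13.8 to 66.8 CPM in Control (median 35.96). The Dehydrated values formed a narrow band that reached from below the lowest Control library into the lower part of the Control range, and all 10 were under the Control median. The log2 difference was -1.03 (SE 0.31, adjusted p 0.461, edgeR's quasi-likelihood test with the sex label as covariate). Those of Fosb and Junb were -1.10 (SE 0.39, adjusted p 0.587) and -0.69 (SE 0.21, adjusted p 0.461) in that edgeR fit, and all 10 Dehydrated libraries were under the Control median for both. The Control medians lay between the values of the 2 letters, at 35.96 (Fos), 3.03 (Fosb) and 26.1 CPM (Junb). No F-named Control library reached them, with highest values of 22.9, 2.16 and 21.2 CPM. Among F-named Dehydrated libraries, 4 of 5 were above the F-named Control median for Fos and for Fosb, and 1 for Junb. In the fit over all libraries no AP-1 gene passed, where 22 of 17558 genes did (0.125%). At an unadjusted p under 0.05, 4 AP-1 genes were below that line in Dehydrated over Control (Fos, Fosb, Fosl1 and Junb), against 6.37% of all tested genes, and DESeq2 called none of the 7. In the authors' deposited table, made with DESeq2, the log2 fold changes were -0.97 for Fos (adjusted p 0.258), -1.10 for Fosb (0.354) and -0.55 for Junb (0.251).

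Within Control, Fos averaged 59.4 ± 6.42 CPM in M-named and 16.7 ± 3.71 CPM in F-named libraries (SD, n = 5 each), a log2 difference of 1.83 (SE 0.25, adjusted p 0.000152, edgeR's quasi-likelihood test). Fosb averaged 5.11 ± 1.22 CPM in M-named and 1.17 ± 0.629 CPM in F-named Control (SD, n = 5 each), with a log2 difference of 2.11 (SE 0.39, adjusted p 0.00760, same edgeR test). Junb averaged 43.7 ± 15.6 CPM in M-named and 18.5 ± 3.39 CPM in F-named Control (SD, n = 5 each), with a log2 difference of 1.24 (SE 0.22, adjusted p 0.00503, same edgeR test). For each of these genes every M-named Control library was above every F-named one. Of all genes, 77 were higher in M-named Control libraries (0.439%) and 106 differed in either direction (0.604%), and groups that did not overlap with M-named higher made up 1.32%. All 3 calls held with each library left out. The M-named Control libraries are the same ones in this comparison and in Dehydrated over Control, so the 2 results share them.

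By labelled sex, Fos did not pass. With the sex label in place of the letter, the log2 difference of Fos between Dehydrated and Control was -2.04 in libraries labelled male (SE 0.39, adjusted p 0.0733) and -0.37 in those labelled female (SE 0.33, adjusted p 1.00) by edgeR's quasi-likelihood test. Between Control libraries labelled male and female, Fos differed by 1.204 (SE 0.35, adjusted p 0.301) in the same edgeR fit. No AP-1 gene passed in these comparisons by sex label, in which 1 (0.0057%), 0 (0.0%) and 6 genes (0.0342%) were called. Control M05, labelled female, held 49.04 CPM of Fos, and Control F03, labelled male, held 17.1 CPM. Control M05 was thus above all F-named Control libraries, and Control F03 was below all M-named ones. The part of the header number in these differences was not tested.

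In Dehydrated, Fos averaged 14.03 ± 3.71 CPM in M-named and 17.8 ± 2.10 CPM in F-named libraries (SD, n = 5 each), which overlapped. The log2 difference of -0.34 (95% interval -0.83 to 0.14) had an adjusted p of 1.00 by edgeR's quasi-likelihood test, and no gene passed there (0.0%). At an unadjusted p under 0.05 that comparison held 359 genes, and DESeq2 called 1.

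In Rehydrated, Fos averaged 32.9 ± 18.5 CPM in 5 M-named and 14.6 ± 4.62 CPM in 4 F-named libraries (SD), which overlapped. The log2 difference was 1.18 (SE 0.27, adjusted p 0.802, edgeR's quasi-likelihood test). Every M-named library was above every F-named one for Junb, as in 0.757% of all genes, with a log2 difference of 0.70 (SE 0.24). No gene passed between the letters in Rehydrated (0.0%), with 657 genes at an unadjusted p under 0.05 and 6 called by DESeq2, Fos among them.

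Among M-named libraries, the Rehydrated mean of Fos, 32.9 ± 18.5 CPM (SD, n = 5), lay between those of Dehydrated and Control. M-named Rehydrated libraries held 65.1 (M01), 31.7 (M04), 24.3 (M05), 22.8 (M06) and 20.8 CPM of Fos (M08). Rehydrated M01 lay within the range of M-named Control, and the other 4 libraries lay below it and above all M-named Dehydrated libraries. The log2 difference from M-named Control was -0.85 (SE 0.24, adjusted p 0.266, edgeR's quasi-likelihood test), and 1 gene was called in that comparison, none of the 7 (0.0057%). This value turned on Rehydrated M01: without it, Fos fell by 1.25 on the log2 scale with an adjusted p of 0.00613, and Junb fell by 1.13 with an adjusted p of 0.0328, by the same edgeR test. With all libraries, Junb differed by -0.86 (SE 0.22, adjusted p 0.262), and Rehydrated M01 was highest there too, at 40.5 CPM, while the others held 17.4 to 24.2 CPM.

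Fosb in M-named Rehydrated libraries held 4.08 (M01), 3.67 (M04), 1.48 (M05), 0.950 (M06) and 2.19 CPM (M08). Rehydrated M01 alone lay inside the M-named Control range, and all 5 were below the M-named Control median of 4.93 CPM. Its log2 difference from M-named Control was -1.05 (SE 0.37, adjusted p 0.361, edgeR's quasi-likelihood test).

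Set against M-named Dehydrated libraries, all 5 M-named Rehydrated libraries were higher in Fos, without overlap, as in 0.49% of all genes. The log2 difference was 1.23 (SE 0.25, adjusted p 0.382, edgeR's quasi-likelihood test). It had the smallest unadjusted p of all genes in that comparison, 2.9e-05, and no gene passed (0.0%), with 538 genes at an unadjusted p under 0.05 and 6 called by DESeq2, which called Fos. The difference of Fos was 0.83 without Rehydrated M01, with an adjusted p of 0.761 by edgeR. This comparison was added after the values were seen, and the groups differed in their days of restriction, 7 and 11.

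F-named Rehydrated libraries held 14.8 (F03), 11.1 (F04), 11.6 (F05) and 21.1 CPM of Fos (F06), which overlapped with F-named Control. The log2 difference was -0.20, with a 95% interval of -0.71 to 0.32. Jun and Jund were lower in all 4 F-named Rehydrated libraries than in any F-named Control library, and groups that did not overlap with Rehydrated lower made up 1.81% of all genes. Jund held 44.0 to 57.6 CPM in F-named Rehydrated and 61.9 to 112.7 CPM in F-named Control. Its log2 difference was -0.78 (SE 0.21, adjusted p 0.294), and that of Jun was -0.31 (SE 0.16, adjusted p 0.636), by edgeR's quasi-likelihood test. Neither passed, and no gene did in that comparison (0.0%), where 1471 genes had an unadjusted p under 0.05 and DESeq2 called 17. Jund was also lower in all 4 F-named Rehydrated libraries than in any F-named Dehydrated one, as 0.957% of all genes were, with a log2 difference of -0.65 (SE 0.20, adjusted p 0.786, edgeR's quasi-likelihood test, 0.0% of genes called, 789 genes at an unadjusted p under 0.05 and 4 called by DESeq2). The difference between the letters in Rehydrated over Control was 0.97 for Jund (SE 0.28, adjusted p 0.233, same edgeR test), and no gene passed in it (0.0%, with 1950 genes at an unadjusted p under 0.05 and 81 called by DESeq2).

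Over both letters no AP-1 gene passed between Rehydrated and Control, and neither did any other gene (0.0%, with 1313 genes at an unadjusted p under 0.05 by edgeR's quasi-likelihood test and 20 called by DESeq2). Between Rehydrated and Dehydrated 4 genes passed (0.0228%), none of the 7, and the log2 difference of Fos was 0.38 (95% interval -0.24 to 1.00).

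Per base of annotated exon, the means over the 29 libraries had the order Jund, Jun, Fos, Junb, Fosl2, Fosb and Fosl1. Over the 29 libraries the mean level was 71.1 ± 18.6 FPKM (CPM per 1000 bases of annotated exon) for Jund and 21.4 ± 4.29 FPKM for Jun (SD). Fos at 12.96 ± 9.09 FPKM and Junb at 11.2 ± 6.09 FPKM overlapped within their SDs, as did Junb and Fosl2 at 7.70 ± 2.99 FPKM, and Fosb at 2.00 ± 1.66 FPKM and Fosl1 at 1.36 ± 0.616 FPKM. These SDs mix treatments and letters, and differences between members within a library were not tested. The annotated exon length is 1035 bases for Jund, while its RefSeq gene span is 1783 bases, and the lengths of Fosb, Fosl1, Junb and Jund are multiples of 3. Levels per length of these genes depend on how much of the transcript the models hold.

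Jund took the largest share of the summed AP-1 level in each group. Its mean share was 62.6 ± 3.82% in M-named Dehydrated and 40.6 ± 6.16% in M-named Control libraries (SD, n = 5 each). Fos took 5.86 ± 1.74% in M-named Dehydrated and 18.9 ± 2.83% in M-named Control (SD, n = 5 each). In F-named libraries the share of Fos was 6.97 ± 1.15% in Dehydrated and 6.39 ± 1.54% in Control (SD, n = 5 each). Shares sum to a fixed whole, so that of Jund moves when Fos and Junb do.

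**Figure D3:**
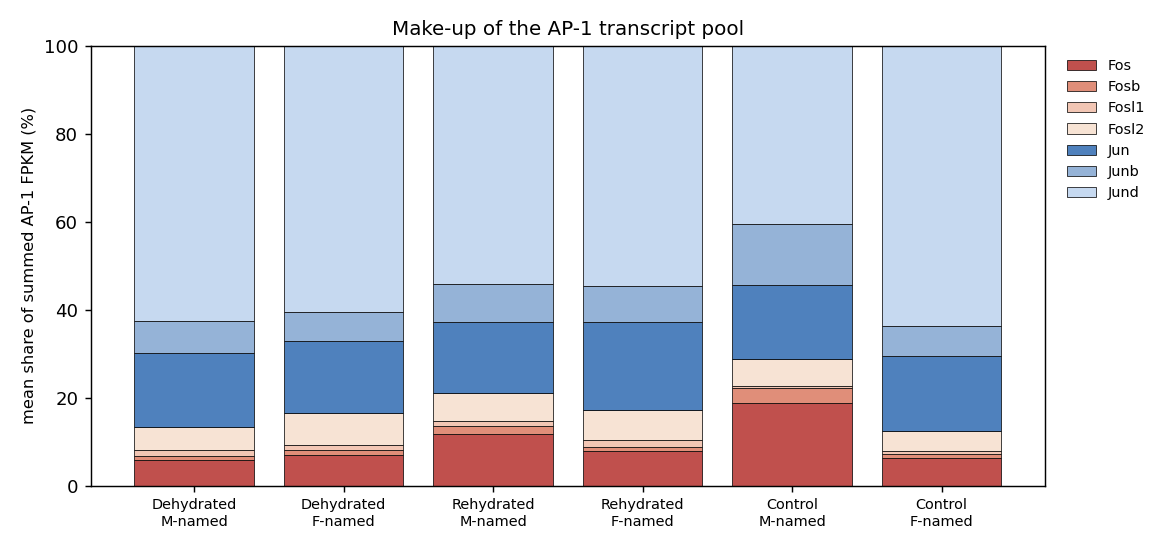
Mean share of the summed AP-1 level (FPKM, % on a linear axis from 0 to 100) taken by each of the 7 genes, stacked, in M-named and F-named libraries of each treatment. Fos holds 18.9% in M-named Control and between 5.86% and 11.9% in the other 5 sets.

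Members varied together only in part once the mean of each group and letter was removed. Over 21 pairs and 29 libraries, log2 CPM of Fosb and Fosl2 correlated with a Pearson r of 0.53 and a Spearman rho of 0.61 (adjusted permutation p 0.0210 and 0.00882). Fos and Fosl2 passed by rho (0.54, adjusted permutation p 0.0298) and not by r (0.44, adjusted permutation p 0.0666). Without the 2 libraries farthest in Fosb, r was 0.58. Without Control M01 the adjusted p of r for that pair was 0.0545, and no pair passed by Pearson's r, while the rho of Fosb and Fosl2 and of Fos and Fosl2 still did (adjusted permutation p 0.0271 and 0.0393). Fos and Junb had an r of 0.53 (rho 0.43, adjusted permutation p 0.0666 and 0.182), and r was 0.28 without the 2 libraries farthest in Fos.

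Outside the family, the genes whose standardised log2 CPM over the 29 libraries was nearest to that of Fos were Egr1, Gjb6, Dnajb1, Csrnp1 and Mcl1, with root-mean-square differences of 0.42, 0.53, 0.57, 0.59 and 0.60 SD among 16465 genes compared. Junb and Fosb would have ranked 2 and 3 on that scale, and Jun, Fosl2, Jund and Fosl1 197, 444, 9163 and 11704. Without Control M01, 4 of the 5 nearest genes were shared. Egr1, an immediate-early zinc finger gene, averaged 30.2 ± 11.2 CPM in M-named Dehydrated and 104.2 ± 28.8 CPM in M-named Control (SD, n = 5 each). Dnajb1, a heat-inducible co-chaperone gene, averaged 69.4 ± 12.0 CPM in M-named Dehydrated and 221.5 ± 85.3 CPM in M-named Control (SD, n = 5 each). Gjb6 encodes connexin 30 of astrocytes, Csrnp1 a nuclear protein and Mcl1 an inhibitor of cell death. Since these genes were chosen for their likeness to Fos, their levels are a description.

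**Figure D4:**
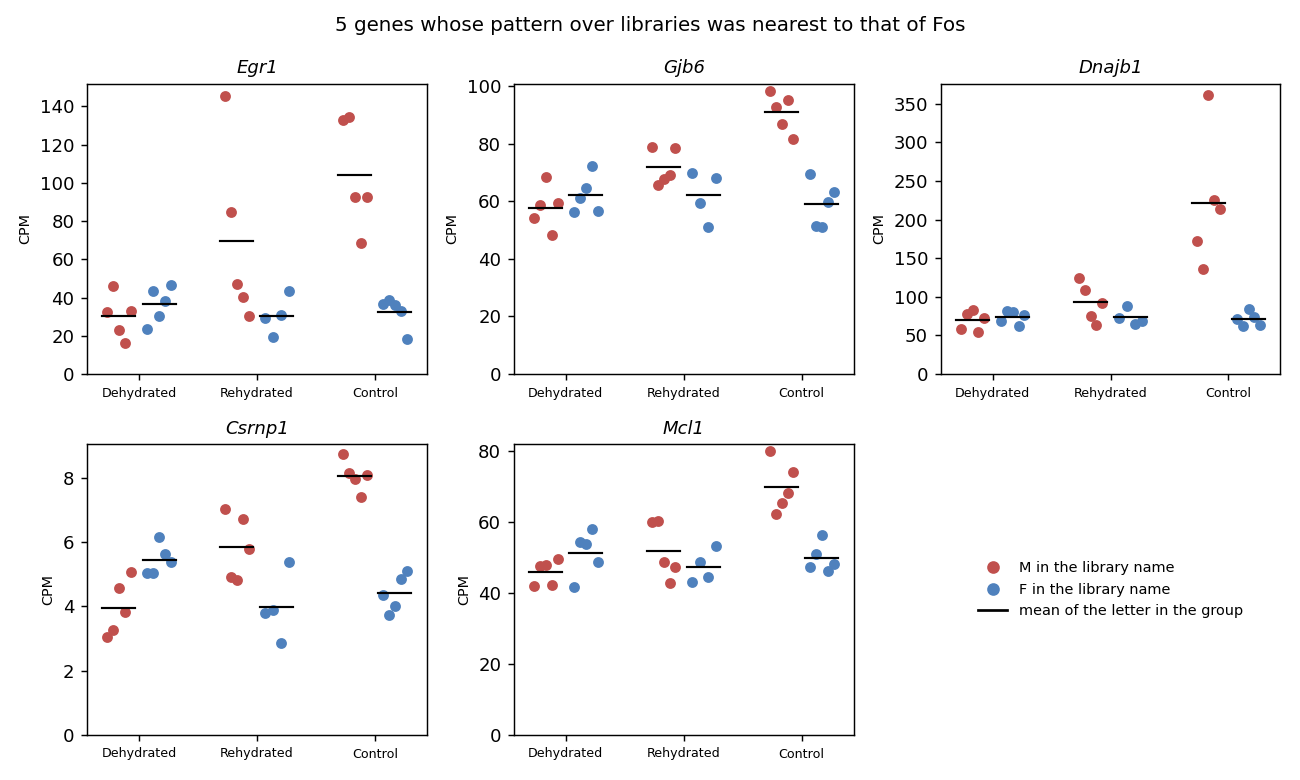
CPM (linear axes from 0) of Egr1, Gjb6, Dnajb1, Csrnp1 and Mcl1 in each of the 29 libraries by treatment, with M-named libraries in red, F-named libraries in blue and a bar at each mean. In each panel the mean of M-named Control is the highest, at 104.2 CPM for Egr1 and 221.5 CPM for Dnajb1.

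Of 14 tested members of a list of other immediate-early genes, 2 fell in M-named Dehydrated libraries and 13 had a log2 difference under 0, with a median of -0.80, while the median of all genes was 0.00. Of all genes, 0.211% fell there and 49.2% had a log2 difference under 0. The 2 that fell were Egr1 (-1.79, SE 0.34, adjusted p 0.0146) and Arc (-1.08, SE 0.20, adjusted p 0.00779), by edgeR's quasi-likelihood test. Arc, a regulator of synaptic receptors, averaged 9.00 ± 2.06 CPM in M-named Dehydrated and 19.1 ± 1.66 CPM in M-named Control (SD, n = 5 each). Within Control, both were also higher in M-named libraries, by 1.68 (Egr1) and 0.96 (Arc). None of the 14 passed in F-named libraries or over all libraries. Egr3, Egr4 and Klf2 had log2 differences of -1.33, -0.76 and -0.91 in M-named Dehydrated over Control, with adjusted p of 0.158, 0.252 and 0.145 by the same edgeR test.

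Of a list of 10 stress and RNA quality genes, some of which tissue handling can raise, 6 were matched and tested. In M-named Dehydrated libraries 3 of these fell beside Fos, where 0.211% of all genes fell. They were Dnajb1 by 1.67, Hsph1 by 0.59 and Gadd45g by 1.16 on the log2 scale (adjusted p 3.57e-05, 0.0343 and 0.0160, edgeR's quasi-likelihood test). Dnajb1 and Hsph1 serve protein folding, and Gadd45g is induced by stress. In M-named over F-named Control, Dnajb1 (1.64), Hsph1 (0.59) and Gadd45b (1.08) were higher, as were 0.439% of all genes. Dnajb1 was also the 1 gene called in M-named Rehydrated over Control, where it fell by 1.26. Dnajb1 also passed in the difference between the letters in Dehydrated over Control, as Fos did, at -1.73 (SE 0.27, adjusted p 0.00410, edgeR's quasi-likelihood test). Of the other 3, Gadd45b, Hspb1 and Txnip had log2 differences of -0.59, -0.29 and 0.11 in M-named Dehydrated over Control. The part of handling or RNA quality in the AP-1 differences was not tested.

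Of 9 marker lists of cell types, none held a gene that passed in M-named Dehydrated over Control or between the letters in Control, and no matched marker had 0 counts over the 29 libraries. The lists whose markers all went the way of Fos in M-named Dehydrated over Control were those of oligodendrocytes, with 5 of 5 log2 differences under 0 and a median of -0.56, and of blood, with 3 of 3 under 0 and a median of -1.61. Summed oligodendrocyte markers (5 of 7 matched) ran from 2220 to 3873 CPM in M-named Dehydrated and from 2926 to 6133 CPM in M-named Control. Summed blood markers (3 of 5) ran from 31.8 to 187.6 CPM in M-named Dehydrated and from 143.9 to 805.7 CPM in M-named Control. In F-named Dehydrated over Control, where Fos did not pass, 4 of 5 oligodendrocyte markers (median -0.13) and 3 of 3 blood markers (median -1.77) were under 0. Between the letters in Control, 4 of 5 oligodendrocyte markers (median 0.13) and 3 of 3 blood markers (median 0.93) were above 0. Between the letters in Rehydrated, 5 of 5 oligodendrocyte markers (median 0.54) and 3 of 3 blood markers (median 2.42) were above 0.

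The other lists had medians in M-named Dehydrated over Control of 0.30 for magnocellular neurons (8 of 8 above 0), 0.47 for astrocytes (6 of 7), 0.50 for suprachiasmatic and neighbouring neurons (6 of 7), 0.10 for optic tract and forebrain neurons (2 of 3), 0.06 for endothelium and mural cells (4 of 7), -0.13 for microglia (2 of 6) and -0.30 for choroid plexus and ependyma (1 of 3). Summed magnocellular markers ran from 3042 to 5285 CPM in M-named Dehydrated and from 780 to 3709 CPM in M-named Control. Summed astrocyte markers ran from 2130 to 2863 CPM in M-named Dehydrated and from 1426 to 2464 CPM in M-named Control. Between the letters in Control, the medians were -0.21 for magnocellular neurons (4 of 8 above 0) and -0.38 for astrocytes (1 of 7). They were -0.60 for suprachiasmatic and neighbouring neurons (1 of 7) and -0.40 for optic tract and forebrain neurons (1 of 3). For endothelium and mural cells the median was -0.26 (0 of 7). For microglia it was 0.06 (3 of 6), and for choroid plexus and ependyma 0.0066 (2 of 3). The part of other cells in the AP-1 differences was not tested.

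Genes around the AP-1 pathway were read from lists of factors, kinases and phosphatases. None of 7 tested dimer partners of the bZIP class, 16 upstream transcription factors, 14 kinases of the ERK, JNK and p38 branches, or 9 MAP kinase phosphatases passed between Dehydrated and Control, over all libraries or in either letter. The 3 genes with the smallest p in Dehydrated over Control went both ways among the partners and among the phosphatases. Among the upstream factors and among the kinases all 3 were above 0. Among the partners, the log2 difference over all libraries was 0.13 for Atf2, 0.21 for Atf7 and -0.43 for Atf3, whose values by letter were -1.01 (SE 0.51) in M-named and 0.39 (SE 0.55) in F-named libraries. Among upstream factors it was 0.52 for Elk3 (SE 0.17, adjusted p 0.508, edgeR's quasi-likelihood test), 0.21 for Crtc3 and 0.09 for Mrtfa, and among kinases it was 0.09 for Mapk10, 0.06 for Mapk3 and 0.13 for Rps6ka5. Among phosphatases it was 1.21 for Dusp2 (SE 0.41, adjusted p 0.550, same edgeR test), -0.24 for Dusp6 and -0.21 for Dusp1. In M-named libraries Dusp6, a phosphatase of ERK, had a log2 difference of -0.50 (SE 0.12, adjusted p 0.0806, same edgeR test), and in F-named libraries of -0.0024.

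Of 20 tested genes described as AP-1 targets, 3 rose in Dehydrated over Control across all libraries and none fell. Of all 17558 tested genes, 20 rose there (0.114%). The list was chosen with earlier results of these data known, so its count of risers is a description. Areg, a ligand of the epidermal growth factor receptor, rose by 3.12 (SE 0.50, adjusted p 0.00369), Spp1, which encodes osteopontin, by 1.69 (SE 0.25, adjusted p 0.00304), and Pdyn, the prodynorphin gene of vasopressin neurons, by 1.13 (SE 0.18, adjusted p 0.00369), each on the log2 scale by edgeR's quasi-likelihood test. In F-named libraries, where the differences of Fos, Fosb and Junb were 0.09, 0.22 and -0.08, the same 3 targets passed, with Pdyn at 157.2 ± 55.3 CPM in Dehydrated and 58.5 ± 14.9 CPM in Control (SD, n = 5 each). Of all tested genes, 10 rose in F-named libraries (0.057%). In M-named libraries, where the 3 AP-1 genes fell, none of the 3 targets passed, with log2 differences of 2.39 (Areg), 1.29 (Spp1) and 0.84 (Pdyn), and their differences between the letters did not pass either. Vgf, Plau and Adm had log2 differences of 0.65, 0.57 and -0.68 over all libraries and did not pass. Areg and Spp1 fell in Rehydrated over Dehydrated, with log2 differences of -3.24 and -1.69 (adjusted p 0.00520 each, edgeR's quasi-likelihood test).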

How the data were processed

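Polyadenylated RNA of 29 libraries was analysed from the deposited counts. Per the file headers, the authors used featureCounts 1.6.2 on read pairs and Ensembl's annotation of mJacJac1, without a strand option, so antisense reads cannot be told apart; no other counted gene overlaps the 7 genes. No header or label used here names the aligner. Separate deposited tables by the authors hold log2 fold changes, p-values and adjusted p-values from DESeq2, per the submitters' processing notes; their 56 columns of values per library were not used.

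Counts were tested in edgeR 4.0.16 (R 4.3.3): filterByExpr on the group, which left out 11612 genes, TMM scaling and robust quasi-likelihood fits over all libraries, with group and sex label (25 residual degrees of freedom), or with the 6 cells of group and name letter. P-values were adjusted over 17558 genes by Benjamini-Hochberg, with a threshold of 0.05. A standard error is the log2 difference divided by the square root of F, and it holds counting error and the spread between libraries. Alternatives were DESeq2 1.42.0, RLE scaling, no filter, other covariates or samples, a replicate block and each library left out. Exact and 100000-resample permutation tests ran in Python 3.11.15 with scipy 1.17.1; figures used matplotlib 3.10.9.

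The 7 members, the gene lists and the rule for named genes were chosen with earlier results of these data known. The rule names all 7 members, the listed genes that passed a contrast, up to 3 others of each list with the smallest p, and the 5 genes nearest to Fos. Each library was taken as 1 animal, since the labels number the samples and speak of single housing, and nothing else says so. The p-values set a difference against the spread between these samples, which the edgeR fits estimated over all 29 libraries. Pairs of libraries within a group, 126 in all, differed beyond sampling noise, with a chi-square of 8.52 to 152.5 for each degree of freedom, and all were kept as separate samples. The fit was tested on simulated data.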

Additional observations from a re-analysis of the deposited data

Results flagged for a closer look

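Within groups of 4 to 10 libraries, 63 groups were searched for a library that lay far from the others, of which chance flags about 1 in 20. Rehydrated M01 was such a library for Fos, at 65.1 CPM, both among all Rehydrated libraries and among the M-named ones, and for Junb among all Rehydrated libraries, at 40.5 CPM. Control F02 was one for Fosl1 among F-named Control libraries, at 1.505 CPM, while the other 4 held 0.527 to 0.793 CPM.

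The difference of Fos between Dehydrated and Control was not the same in the 2 letters. M-named minus F-named was -2.17 on the log2 scale (SE 0.35, adjusted p 0.00410, edgeR's quasi-likelihood test of the difference). With each library left out this value ran from -2.31 to -2.02 and passed in 29 of 29 fits. Between the letters, M-named over F-named, Fos differed by 1.83 in Control and by -0.34 in Dehydrated. The treatment and the header number cannot be told apart within a letter.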

How the results depend on the processing

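Among the values of the 7 genes, 465 kept their direction and side of the threshold under the alternatives other than leaving out 1 library, 5 passed only with DESeq2 and 6 changed sign, none of which had passed. The calls of Fos, Fosb and Junb in M-named Dehydrated over Control and between the letters in Control, and of Fos in the difference between the letters, held under the 4 alternatives run within the letters. These were DESeq2, RLE scaling, no filter and leaving out the 3 libraries of differing letter and label. The calls also held with each library left out. In M-named Dehydrated over Control none of the 3 genes passed the exact permutation test (adjusted p 0.0741 each). Their unadjusted p in it, 0.00794, was already the smallest that 5 libraries against 5 allow. With 3 genes alone at that p, none could pass over 28 tests, so this test could not decide the calls. None passed in the fit by sex label, for Dehydrated over Control or within Control. A further 2 values passed only with a library left out, those of Fos and Junb in M-named Rehydrated over Control without Rehydrated M01. Leaving out the 3 libraries of differing letter and label, and the comparison of Rehydrated with Dehydrated within a letter, were chosen after seeing the data. With DESeq2, the difference between the letters also passed for Fosb (-2.45, adjusted p 0.0107) and Junb (-1.27, adjusted p 0.0275), as did Junb in M-named Rehydrated over Control (-0.86, adjusted p 0.0483), Fos between the letters in Rehydrated (1.17, adjusted p 0.0369) and Fos in M-named Rehydrated over Dehydrated (1.23, adjusted p 0.00456). The cause was not tested.

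Counts of called genes moved more. With DESeq2 they were 45 for Dehydrated over Control (22 in edgeR), 20 for Rehydrated over Control (0), 16 for Rehydrated over Dehydrated (4), 186 and 20 for M-named and F-named Dehydrated over Control (46 and 11), 57 for their difference (9), 42 and 17 for M-named and F-named Rehydrated over Control (1 and 0) and 81 for their difference (0). In the comparison M-named over F-named, Control, it called 441 genes (106), and between the letters it called 1 in Dehydrated (0) and 6 in Rehydrated (0), and for Rehydrated over Dehydrated 6 in M-named and 4 in F-named libraries (0 each). With the compared groups alone, 11 genes passed in Dehydrated over Control and 1 in Rehydrated over Dehydrated. Without the 3 libraries of differing letter and label, 18 and 0 genes passed in M-named and F-named Dehydrated over Control, 4 in their difference, and 48, 3 and 3 between the letters in Control, Dehydrated and Rehydrated; fewer samples entered these fits. Without centring, 8 pairs of members passed for covariation. With centring, 1 pair passed by Pearson's r, and 0 did so without Control M01. By Spearman's rho, Fosb and Fosl2 and also Fos and Fosl2 passed with centring, both with Control M01 and without it.

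With each library left out in turn, called genes ran from 10 to 27 in Dehydrated over Control, 0 to 2 in Rehydrated over Control and 2 to 9 in Rehydrated over Dehydrated. They ran from 21 to 136 (136 without Control M03) and 0 to 13 in M-named and F-named Dehydrated over Control, 5 to 16 in their difference, 1 to 15 and 0 to 5 in M-named and F-named Rehydrated over Control and 0 to 21 in their difference. Between the letters they ran from 37 to 360 in Control (360 without Control M03) and 0 to 1 in Dehydrated and in Rehydrated, and for Rehydrated over Dehydrated 0 in all M-named fits and 0 to 2 in F-named ones.

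Of 19 pairs of the same replicate code, 2 had a correlation of deviations over 0.1 (range -0.115 to 0.110). The median was 0.016 for these pairs and 0.0010 for other pairs. Libraries were not treated as paired in the main fits, although these values cannot exclude a pairing. With a replicate block, 12 genes passed in Dehydrated over Control, and 3 values of the 7 genes changed sign, Fosl2 in Rehydrated over Control (0.22) and Fosb and Junb in Rehydrated over Dehydrated (-0.13 and -0.10). Without the 3 libraries of differing letter and label, Fosl1 was 0.16 in the difference between the letters for Rehydrated over Control and -0.30 between the letters in Control, and Jund was 0.037 between the letters in Dehydrated.

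The values that changed sign with a library left out, none of which passed, were these. In Dehydrated over Control, Jund ran from -0.018 to 0.12 over all libraries, Junb from -0.23 to 0.0041 in F-named ones and Fosl1 from -0.32 to 0.40 in the difference between the letters. In Rehydrated over Control, Fosl2 ran from -0.14 to 0.086 over all libraries, from -0.37 to 0.016 in M-named and from -0.063 to 0.30 in F-named ones, and in the difference between the letters Fosl1 ran from -0.55 to 0.075 and Jun from -0.10 to 0.11. In Rehydrated over Dehydrated, Fosb ran from -0.0055 to 0.28 and Junb from -0.076 to 0.14 over all libraries, Jun from -0.020 to 0.17 and Jund from -0.19 to 0.10 in M-named ones and Fosl1 from -0.36 to 0.24 in F-named ones. Between the letters Fosl1 ran from -0.20 to 0.41 in Control, from -0.093 to 0.44 in Dehydrated and from -0.40 to 0.12 in Rehydrated, and in Dehydrated Jun ran from -0.14 to 0.038, Junb from -0.12 to 0.12 and Jund from -0.20 to 0.067. Depth limits Fosl1 and Fosb most, which had as few as 7 and 6 counts in a library.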
